A study of Arabidopsis thaliana with 18 samples.

Results

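The transcriptome of Arabidopsis thaliana leaves was compared between 24 h and 0 h after dexamethasone in the NAA50 amiRNA line, in which this synthetic steroid switches on an artificial microRNA directed at NAA50. The comparison rests on 6 of the 18 libraries of the series, 3 at 24 h and 3 at 0 h, and on all 23790 genes of the count table, of which 18344 had enough counts to be tested. Both groups were 4-week-old plants of 1 transgenic line that carries the inducible amiRNA, so the 0 h plants hold the transgene too, and days of 8 h of light with nights of 16 h were used for both. Plants were sprayed with 50 µM dexamethasone, and each library came from 0.4 g of tissue of the 4th leaf of 4 plants pooled, so that a library is a mean over plants. The scrambled amiRNA line, the negative control, had 3 libraries at 24 h and 3 at 0 h after the same spray, and its change over the same interval is set beside that of the NAA50 line. The 24 h and 0 h leaves stand 1 day apart and so at the same time of day, which leaves the spray, the amiRNA and 1 day of leaf age as the labelled differences. The labels used here name neither the promoter of the transgene nor how many independent insertions a line represents, and each amiRNA is represented by a single line. The series asks what NAA50 knockdown does to the transcriptome.

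NAA50 is a catalytic subunit of the N-terminal acetyltransferases, enzymes that add an acetyl group to the first residue of proteins as they leave the ribosome. The modification affects how stable many proteins are and where they go in the cell. In Arabidopsis, loss of NAA50 is known to stunt plants and to raise stress signalling, and the enzyme interacts with EDR1, a protein kinase that restrains programmed cell death and senescence. An artificial microRNA is a short RNA placed in the backbone of a natural microRNA precursor, and it guides cleavage of the transcript that it pairs with.

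The 6 libraries held 10389333 to 12353330 counts each, with 20273 to 20931 genes detected by 1 count or more. Levels are in CPM, counts scaled to the effective size of each library. The level of 3 counts, which is the most that a count of 0 leaves possible for counting error alone, was 0.224 to 0.295 CPM. Library sizes were scaled by the TMM method, and a change is the log2 ratio of 24 h over 0 h ± SE from edgeR's quasi-likelihood fit, with a Benjamini-Hochberg adjusted p over all tested genes. A gene is called at an adjusted p under 0.05. Nothing in the labels says that libraries of a group came from separate experiments, so the p-values measure the spread between these pools. The libraries carry the RNA of leaves. In the 0 h libraries 40 nuclear photosystem genes took 123100 to 159800 CPM, while 7 seed and embryo genes summed to 0.286 to 1.37 CPM and 3 root genes to 0.161 to 0.593 CPM.

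NAA50, on chromosome 5 from 3619152 to 3621511 on the plus strand (AT5G11340, TAIR10.1), had 2.36, 3.31 and 4.62 CPM at 24 h and 13.4, 11.6 and 12.7 CPM at 0 h in the NAA50 line. The 3 libraries at 24 h lay well below all 3 at 0 h. The change was -1.85 ± 0.18 on the log2 scale (adjusted p = 7.75e-07), so a residual level remained. In the scrambled line NAA50 had 17.7, 17.1 and 16.03 CPM at 24 h and 14.8, 13.8 and 13.4 CPM at 0 h. The change in the NAA50 line differed from that in the scrambled line by -2.12 ± 0.24 (adjusted p = 2.21e-05).

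Of the 18344 genes tested, 9986 (54.4%) were called between 24 h and 0 h in the NAA50 line, 5147 (28.1%) higher and 4839 (26.4%) lower. At least a 2-fold change was called in 2507 genes that were higher (13.7%) and in 2304 that were lower (12.6%). At 8-fold or more, 443 genes were higher and 261 lower. The scrambled line also changed over the same day: 5060 genes (27.6%) were higher and 4858 (26.5%) lower there, but at 8-fold or more the counts were 261 higher and 74 lower. Of the 5147 genes that rose in the NAA50 line, 2716 (52.8%, or 53.7% of the genes that rose in the scrambled line) also rose in the scrambled line, 406 (7.89%) fell there and 2025 were not called there. Of the 4839 that fell, 2786 (57.6%, or 57.3% of the genes that fell in the scrambled line) also fell in the scrambled line, 245 (5.06%) rose there and 1808 were not called there. The 2 changes were therefore compared with each other (NAA50 line minus scrambled line). This test of the difference called 5458 genes (29.8%), 2694 with a positive difference (14.7%) and 2764 with a negative one (15.1%). The 24 h and 0 h libraries of the NAA50 line did not overlap in 11451 genes (62.4%), so a lack of overlap given below for single genes is common here.

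**Figure D1:**
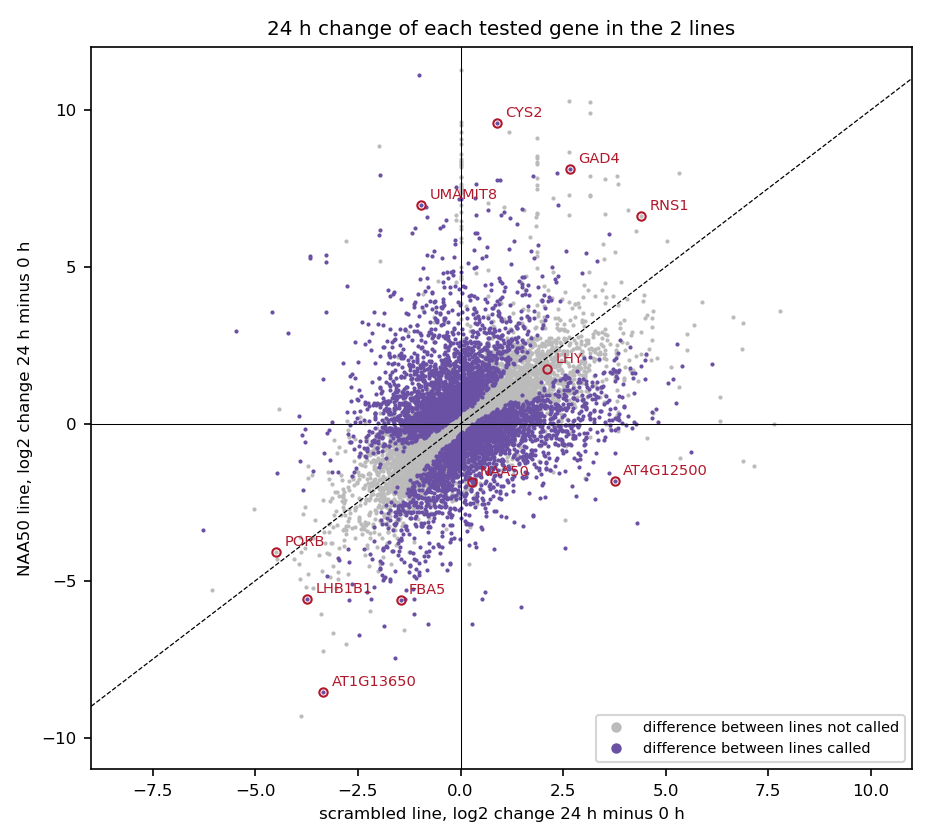
Log2 change from 0 to 24 h in the NAA50 line (vertical axis) against that in the scrambled line (horizontal axis) for the 18344 tested genes, in purple where the 2 changes differed at an adjusted p under 0.05 (5458 genes) and in grey otherwise. The dashed line marks equal changes; CYS2, GAD4 and UMAMIT8 stand far above it, AT1G13650 and FBA5 far below it, and LHY and PORB close to it.

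Where the mean log2 CPM was at least 1 and the times did not overlap, the largest called increases were of genes with low levels at 0 h. Ranking by log2 change favours a low start, and the mean was over all 18 libraries, so induced libraries helped genes pass. In the scrambled line these genes stayed far lower at 24 h. GAD4, AT1G64405 and BGLU45 still rose there (2.66, 2.38 and 1.76, adjusted p = 1.27e-04, 0.00484 and 0.0374). CYS2, which encodes a phytocystatin, an inhibitor of papain-type cysteine proteases, had 2851, 2761 and 1949 CPM at 24 h and 6.10, 1.62 and 2.09 CPM at 0 h. Its mean at 24 h was 770.1 times that at 0 h, a change of 9.58 ± 0.60 (adjusted p = 8.95e-09). In the scrambled line it had 1.61, 2.63 and 0.895 CPM at 24 h and 0.0942, 2.15 and 0.630 CPM at 0 h, so that the 3 induced libraries stood alone, and the 2 changes differed by 8.70 ± 1.04 (adjusted p = 3.19e-05). GAD4, a glutamate decarboxylase that makes the amino acid GABA, had 1526, 1280 and 755 CPM at 24 h and 3.73, 3.91 and 5.23 CPM at 0 h. The scrambled line reached 19.5, 25.3 and 7.24 CPM at 24 h, against 1.60, 2.90 and 3.69 CPM at 0 h. GAD4 thus rose in the NAA50 line by 8.10 ± 0.47 (adjusted p = 5.03e-09), and by 5.45 ± 0.60 more than in the scrambled line (adjusted p = 1.45e-05).

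Others of this group encode enzymes, transporters and proteins without a symbol. BGLU45, a beta-glucosidase that acts on glucosides of the lignin monomers, had 658, 706 and 444 CPM at 24 h and 4.49, 1.05 and 1.93 CPM at 0 h, and the change was 7.90 ± 0.49 (adjusted p = 7.91e-09). UMAMIT8, of a family of amino acid transporters, had 62.98, 70.8 and 54.99 CPM at 24 h and 0.763, 0.477 and 0.241 CPM at 0 h. The pectin methylesterase PME5 had 30.9, 72.2 and 54.4 CPM at 24 h and 0.0848, 0.382 and 0.804 CPM at 0 h. The 0 h levels of UMAMIT8 and PME5 were close to the level of 3 counts, so the size of their changes (6.97 ± 0.28 and 6.89 ± 0.50) rests on few counts. The scrambled line did not follow: the differences between the lines were 7.92 ± 0.85 for UMAMIT8 (adjusted p = 1.20e-05) and 7.74 ± 1.14 for PME5 (adjusted p = 1.85e-04). AT1G47980 had 91.96, 84.3 and 36.4 CPM at 24 h and 0.254, 0.191 and 0.482 CPM at 0 h. AT2G47010 had 43.7, 68.5 and 54.7 CPM at 24 h and 0.593, 0.286 and 0.241 CPM at 0 h. AT3G21320, with 329.9, 329.9 and 156 CPM at 24 h and 2.20, 0.573 and 0.884 CPM at 0 h, overlaps the gene AT3G21310 on the opposite strand over 49.1% of its length, and reads of the 2 genes may be mixed. SAG29 (SWEET15), a sugar exporter known from senescing leaves, had 323, 329 and 237 CPM at 24 h and 6.27, 0.286 and 1.21 CPM at 0 h. It rose by 6.81 ± 0.54 (adjusted p = 8.47e-08). The scrambled line averaged 0.497 CPM at 24 h and 0.167 CPM at 0 h, and the lines' difference, 5.26 ± 2.15, did not pass (adjusted p = 0.0767). Without library 1 or library 2 of the NAA50 line at 0 h it did (adjusted p = 0.00122 and 0.0366). AT1G64405 had 115, 94.1 and 64.98 CPM at 24 h and 0.763, 0.955 and 0.482 CPM at 0 h, a change of 6.96 ± 0.36. It too differed between the lines (4.58 ± 1.05, adjusted p = 0.00463), but not without library 2 of the scrambled line at 0 h (adjusted p = 0.144).

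**Figure D2:**
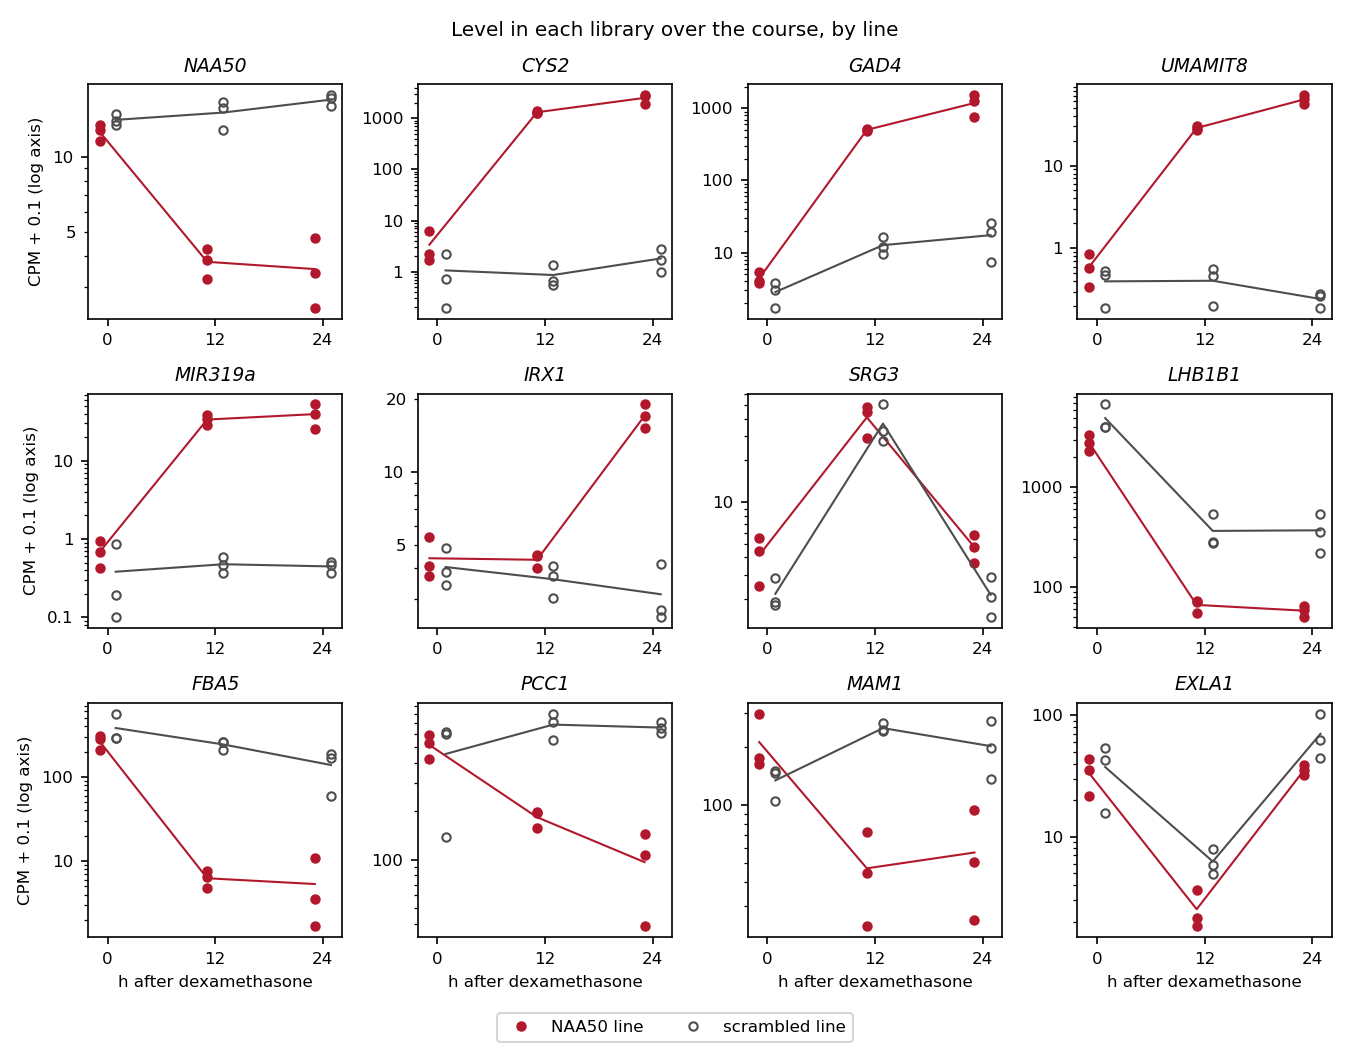
CPM + 0.1 (log axis) at 0, 12 and 24 h of 12 genes in each library of the NAA50 line (filled red) and the scrambled line (open grey), with lines through the group means and the 2 lines set slightly apart in time for clarity. CYS2, GAD4, UMAMIT8 and MIR319a leave the scrambled line by 12 h and stay high at 24 h, while SRG3 and EXLA1 are back near their 0 h level at 24 h.

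By CPM and with the same filter, CYS2 was again among the 8 largest gains, and the other 7 were of genes that leaves already expressed at 0 h. The dehydrin ERD10, a hydrophilic protein that accumulates on drying and cold, had 3120, 3091 and 1749 CPM at 24 h and 135, 71.7 and 459 CPM at 0 h. The related dehydrin COR47 had 2371, 2562 and 1474 CPM at 24 h and 174, 92.4 and 613 CPM at 0 h. Library 3 was the highest at 0 h in both. The changes were 3.58 ± 0.51 for ERD10 and 2.86 ± 0.50 for COR47. Neither had such a gain in the scrambled line (179 and 127 CPM at 24 h, against 94.8 and 122 CPM at 0 h), and both differences between the lines passed (adjusted p = 0.00794 and 0.00595). ALDH7B4, an aldehyde dehydrogenase of osmotic stress, had 3229, 3073 and 2213 CPM at 24 h and 164, 89.5 and 313 CPM at 0 h, a change of 3.91 ± 0.41. ADC2, which makes the polyamine putrescine from arginine, had 2113, 1882 and 1442 CPM at 24 h and 159.5, 90.9 and 632 CPM at 0 h. Its change (2.62 ± 0.50) did not differ detectably from that in the scrambled line (difference 0.50 ± 0.67, adjusted p = 0.616). It did without library 3 of the NAA50 line at 0 h (adjusted p = 0.00435). The polyubiquitin gene UBQ11 rose by 1.79 ± 0.18, with 3845, 2769 and 2149 CPM at 24 h and 827, 799 and 906 CPM at 0 h. The leaf catalase gene AT4G35090 (CAT2), which clears the peroxide of photorespiration, had 4165, 3439 and 3077 CPM at 24 h and 1527, 1622 and 1723 CPM at 0 h, and rose in both lines (1.13 ± 0.14 in the NAA50 line and 1.35 ± 0.14 in the scrambled line). The nitrate reductase gene NIA2 rose by 0.91 ± 0.14 to a mean of 3533 CPM at 24 h, against 1887 CPM at 0 h.

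Among the largest decreases, picked with the same filter on level and overlap, were genes of growth and of primary metabolism. FBA5, a fructose-bisphosphate aldolase of glycolysis, had 1.57, 3.40 and 10.7 CPM at 24 h and 285, 302 and 209 CPM at 0 h, a change of -5.62 ± 0.58 (adjusted p = 1.24e-06). It fell less in the scrambled line (-1.46 ± 0.47), and the 2 changes differed by -4.16 ± 0.71 (adjusted p = 5.78e-04). AT1G13650 fell to 0.197, 0.0945 and 0.224 CPM at 24 h, all at or under the level of 3 counts, against 39.9, 104 and 66.4 CPM at 0 h (-8.56 ± 0.89, adjusted p = 1.25e-06). This gene fell in the scrambled line too (-3.35 ± 0.54), but less, and the 2 changes differed by -5.21 ± 1.16 (adjusted p = 0.00375). AT5G02760, a protein phosphatase 2C, had 0.0983, 0.0945 and 0.522 CPM at 24 h and 19.5, 16.5 and 17.9 CPM at 0 h. CIPK20, a calcium-sensor-regulated protein kinase, had 0.197, 0.946 and 2.76 CPM at 24 h and 56.6, 59.5 and 50.9 CPM at 0 h. OFP15, a transcriptional repressor of the ovate family, had 0.295, 0.473 and 0.373 CPM at 24 h and 18.6, 24.15 and 14.2 CPM at 0 h. These 3 genes had changes of -6.05, -5.31 and -5.60. Each fell further than in the scrambled line (differences -4.91, -3.97 and -2.89, adjusted p = 3.99e-05, 0.00101 and 0.00178). AT1G15830, AT2G34060, a peroxidase family gene, and AT1G10657 fell too, with log2 changes of -5.57, -5.28 and -5.23. PRE1, a small helix-loop-helix protein that promotes cell elongation, had 0.197, 0.189 and 0.149 CPM at 24 h and 5.09, 7.45 and 6.92 CPM at 0 h (-5.12 ± 0.57).

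Ranked by the difference between the lines, further genes stood out. TRM13, of a family that organises microtubule arrays, had 19.1, 36.3 and 31.7 CPM at 24 h and 0.254, 0.191 and 0.643 CPM at 0 h in the NAA50 line, while it was not called in the scrambled line (-1.12, adjusted p = 0.0858), and the lines differed by 7.36 ± 0.67 (adjusted p = 2.29e-06). AT4G12500, a lipid-transfer family gene, had 2.46, 1.80 and 3.20 CPM at 24 h and 10.2, 9.16 and 7.64 CPM at 0 h in the NAA50 line, while the scrambled line had 2.60, 5.43 and 7.97 CPM at 24 h and 0.188, 0.215 and 0.720 CPM at 0 h. It fell in the first line and rose in the second, a difference of -5.60 ± 0.93 (adjusted p = 5.17e-04). AT4G16563, an aspartic protease family gene, fell in the NAA50 line (-2.31 ± 0.61) and rose in the scrambled line (2.81 ± 0.51), with a difference of -5.12 ± 0.79 (adjusted p = 2.57e-04). AT3G46280 had a change of -1.58 ± 0.66 in the NAA50 line that did not pass (adjusted p = 0.0538), unless library 3 at 24 h was left out (adjusted p = 0.00237), and a difference of -5.21 ± 0.99 (adjusted p = 0.0013).

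The nuclear genes of the photosystems, which encode the chlorophyll-binding antenna proteins and the reaction-centre subunits, fell almost as a block. Of 40 tested, 39 fell by edgeR's test (97.5%, against 26.4% over all tested genes). The ferredoxin gene FED A was not called (-0.65 ± 0.27, adjusted p = 0.0521). Of the 40 genes 0 rose (0 also at an unadjusted p under 0.05 and by DESeq2). Their median change was -1.66, against -0.0012 over all tested genes, and their sum was 34910 to 48120 CPM in the 24 h libraries, against 123100 to 159800 CPM in the 0 h libraries. The scrambled line lost them as well: 40 of 40 fell (100%, against 26.5% over all tested genes), with a median of -1.45. Their sum there was 43780 to 80920 CPM at 24 h, against 162000 to 226400 CPM at 0 h. By edgeR 2 of the 40 differed between the lines (5% of them, against 29.8% over all tested genes), LHB1B1 and PSBO2, and the median difference was -0.33. LHB1B1, an antenna protein of photosystem II, had 58.6, 65.1 and 49.8 CPM at 24 h and 2298, 3322 and 2773 CPM at 0 h in the NAA50 line, and 355, 218 and 538 CPM at 24 h and 4019, 6770 and 3992 CPM at 0 h in the scrambled line. It was the photosystem gene with the strongest fall in both lines (-5.60 ± 0.39 in the NAA50 line and -3.73 ± 0.35 in the scrambled line), and the changes differed by -1.86 ± 0.45 (adjusted p = 0.00664). PSBO2, of the oxygen-evolving complex, fell by 1.41 in the NAA50 line. How far its change departed from that of the other line (-0.63, adjusted p = 0.0233) did not hold without library 2 of the NAA50 line at 0 h or at 24 h, or without library 1 or 3 of the scrambled line at 0 h or library 1 at 24 h (adjusted p = 0.0504 to 0.0634). In CPM the largest single losses were of the antenna genes CAB1, with 2903, 5155 and 3492 CPM at 24 h and 9705, 11760 and 9815 CPM at 0 h, and LHCA4, with 1838, 2678 and 2264 CPM at 24 h and 8592, 9963 and 7217 CPM at 0 h. CAB1, CAB2 and CAB3 are near-identical in sequence, so their split of shared reads is uncertain.

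**Figure D3:**
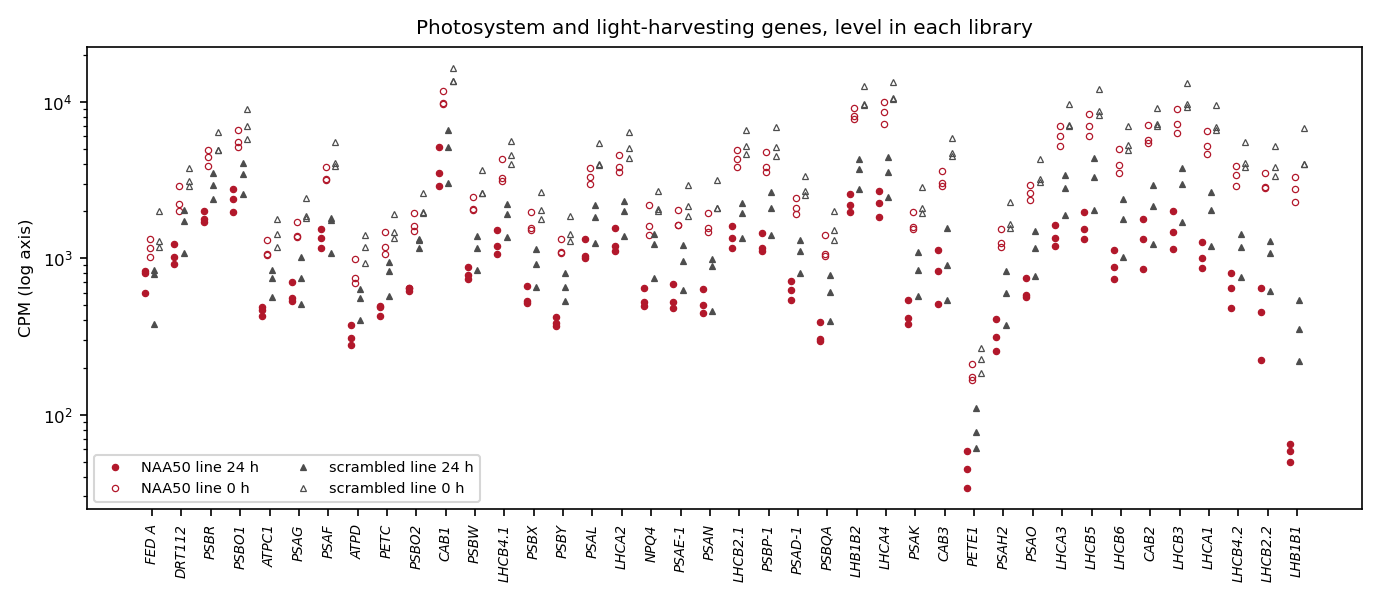
CPM (log axis) of the 40 nuclear photosystem genes in each library of the NAA50 line (red circles, filled at 24 h and open at 0 h) and the scrambled line (grey triangles, filled at 24 h and open at 0 h). The filled symbols of both lines lie below the open ones in nearly every gene, and LHB1B1 shows the widest gap.

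The Calvin cycle and photorespiration genes followed, with 20 of 23 lower and 1 higher (87.0% and 4.35%, against 26.4% and 28.1% over all tested genes) and a median of -0.79. The small Rubisco subunit gene RBCS1A had 3984, 4890 and 3641 CPM at 24 h and 8728, 12050 and 8686 CPM at 0 h (-1.24 ± 0.23), and Rubisco activase RCA 7965, 7720 and 6423 CPM at 24 h and 12600, 13980 and 10260 CPM at 0 h (-0.74 ± 0.20). Both genes were lower in every 24 h library. RBCS2B fell by 2.49 and was the 1 of 23 genes whose change differed between the lines (-1.41 ± 0.39, adjusted p = 0.0143), although it shares near-identical sequence with RBCS3B. Of 16 genes of chlorophyll synthesis, 12 fell and 2 rose (75% and 12.5%), with a median of -1.20. PORB, a light-dependent protochlorophyllide reductase, had 13.3, 25.3 and 16.99 CPM at 24 h and 267, 403 and 280.5 CPM at 0 h, and it fell in both lines (-4.10 ± 0.41 in the NAA50 line, -4.50 ± 0.42 in the scrambled line, difference 0.40 ± 0.52, adjusted p = 0.602). GLK2, a transcription factor that drives antenna and chlorophyll genes, had 16.6, 20.04 and 39.4 CPM at 24 h and 235, 253 and 202 CPM at 0 h. It fell by 3.18 in the NAA50 line and further than in the scrambled line (-2.21 ± 0.43, adjusted p = 0.00155). Its partner GPRI1 (GLK1) had 308 CPM at 24 h and 255 CPM at 0 h. The 2 higher calls became 1 without library 1 or 3 at 0 h or library 1 at 24 h.

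Many senescence genes rose in the same leaves. Of 28 genes of senescence and chlorophyll breakdown 16 rose and 2 fell (57.1% and 7.14%, against 28.1% and 26.4% over all tested genes), with a median of 0.83. NYE1, which begins the dismantling of chlorophyll, had 174, 166 and 158 CPM at 24 h and 57.1, 45.8 and 51.9 CPM at 0 h (1.68 ± 0.11), and the ribonuclease RNS1 had 114, 276 and 110 CPM at 24 h and 3.48, 1.15 and 0.482 CPM at 0 h (6.60 ± 0.60). The 24 h libraries were the higher ones in both genes. The chlorophyll b reductase NYC1 rose by 0.75, the pheophytinase PPH by 0.67, the senescence factor NAP by 0.71 and the autophagy gene ATG8H by 1.33. DIN10 and ATG8E fell (-2.73 and -1.66). The scrambled line gave 17 higher and 4 lower of the same 28 (60.7% and 14.3%, against 27.6% and 26.5% over all tested genes). The median there was 1.18. The change differed between the lines in 5 of 28 (17.9%, against 29.8% over all tested genes), 2 positive and 3 negative. With 1 library left out, the 2 ran from 1 (without library 2 of the NAA50 line at 24 h) to 4 (without library 1 of the NAA50 line at 0 h). The 3 ran from 1 (without library 2 of the NAA50 line at 24 h) to 8 (without library 3 of the scrambled line at 0 h).

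Genes of abscisic acid (ABA), the hormone of drought, formed one of the groups that rose furthest. Of 44 tested, 25 rose (56.8%, against 28.1% over all tested genes) and 4 fell, with a median of 1.23. Their sum was 8892 to 14280 CPM in the 24 h libraries, against 2580 to 6246 CPM in the 0 h libraries. In the scrambled line 18 rose and 6 fell (40.9% and 13.6%, against 27.6% and 26.5% over all tested genes). The sum there was 3105 to 3602 CPM at 24 h, against 2459 to 2785 CPM at 0 h. The differences between the lines were positive in 11 and negative in 3 genes (25% and 6.82%, against 14.7% and 15.1% over all tested genes). Without library 3 of the scrambled line at 0 h the 11 became 7, and without library 2 of the NAA50 line at 0 h the 3 became 6. Synthesis and breakdown moved together. NCED3, the rate-limiting enzyme of stress-induced ABA synthesis, had 105, 134 and 82.9 CPM at 24 h and 19.8, 10.8 and 13.1 CPM at 0 h, and the ABA hydroxylase CYP707A1 a mean of 10.2 CPM at 24 h and 2.29 CPM at 0 h. NCED3 rose by 2.88 ± 0.48, and by 2.26 ± 0.66 more than in the scrambled line (adjusted p = 0.0178). Of 5 receptor genes tested 3 fell, with PYL4 at 6.78, 13.5 and 8.72 CPM at 24 h and 34.6, 48.7 and 35.8 CPM at 0 h (-2.04 ± 0.25), and changes of -1.36 in PYR1 and -0.74 in PYL1. PYL5 rose (0.62, adjusted p = 0.0373), but not without library 1 or 3 at 0 h or 1 or 2 at 24 h (adjusted p = 0.104 to 0.128), and PYL6 was not called (0.12, adjusted p = 0.781). The clade A phosphatases, which switch the pathway off, rose: ABI2 had 159, 167 and 127 CPM at 24 h and 8.90, 5.25 and 22.99 CPM at 0 h (3.59 ± 0.39), HAB1 rose by 2.46, PP2CA by 2.08, ABI1 by 2.10 and HAB2 by 1.05. Among the outputs, RD22 had 1033 CPM at 24 h and 522 CPM at 0 h and rose more than in the scrambled line (1.26, adjusted p = 0.00595). LTI78 (1.38, adjusted p = 0.216), COR15A (1.24, adjusted p = 0.226) and RD20 (1.11, adjusted p = 0.223) did not pass. In each the 0 h libraries were widely spread, LTI78 at 27.7, 14.03 and 787 CPM, with library 3 the highest. Without that library all 3 passed (adjusted p = 6.14e-07, 2.70e-04 and 0.0215).

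The salicylic acid genes, which drive defence against pathogens that feed on living cells, were split in the NAA50 line. Of 31 tested, 10 rose and 5 fell (32.3% and 16.1%, against 28.1% and 26.4% over all tested genes), with a median of 0.14. Without library 2 at 0 h, 6 rose; the 5 lower calls became 2 with library-size scaling and 2 or 3 without any single library except library 3 at 24 h. In the scrambled line 26 of the 31 rose (83.9%, against 27.6% over all tested genes), with a median of 1.79. By edgeR 0 fell there (0 also at an unadjusted p under 0.05 and by DESeq2). The group's sum was 7741 to 12270 CPM at 24 h and 6098 to 7010 CPM at 0 h in the NAA50 line. In the scrambled line it was 12300 to 20070 CPM at 24 h and 1701 to 6425 CPM at 0 h. The 0 h libraries of the scrambled line were thus widely spread, and the differences between the lines rest on them too. The change differed between the lines in 16 genes, negative in 15 (48.4%, against 15.1% over all tested genes) and positive in AZI1 alone, and the median difference was -1.66. The regulators upstream rose in both lines: CBP60G, a transcription factor of salicylic acid synthesis, had 644, 545 and 335 CPM at 24 h and 148, 86.97 and 106 CPM at 0 h (2.16 ± 0.34), with no detectable difference from the scrambled line (-0.03 ± 0.46, adjusted p = 0.977). SARD1 rose by 1.31. PBS3, an enzyme of salicylic acid synthesis, rose by 2.34. EDS16, the isochorismate synthase that feeds this pathway, did not pass in the NAA50 line (0.83 ± 0.47, adjusted p = 0.149). It had 150 CPM at 24 h and 84.5 CPM at 0 h there, while the scrambled line had 419 CPM at 24 h and 62.9 CPM at 0 h.

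Further members differed between the lines. PCC1, a small membrane protein of the defence response, fell to 38.4, 107 and 144 CPM at 24 h, against 526, 423 and 594 CPM at 0 h (-2.42 ± 0.47), and had 658, 712 and 607 CPM at 24 h and 598, 137 and 620.4 CPM at 0 h in the scrambled line. The 2 changes differed by -2.96 ± 0.64 (adjusted p = 0.00332). WRKY54, a transcription factor, had 38.2 CPM at 24 h and 84.8 CPM at 0 h (-1.15 ± 0.34), and differed from the scrambled line by -1.66 (adjusted p = 0.0153). DMR6 and AT4G10500, both hydroxylases that inactivate salicylic acid, were not called in the NAA50 line (-0.02 and -0.39) and rose in the scrambled line, with differences of -1.68 ± 0.45 and -2.97 ± 0.86 (adjusted p = 0.0107 and 0.0172). The receptor NPR1 was at 77.2 CPM at 24 h and 84.8 CPM at 0 h, and GRX480 at 13.97 CPM at 24 h and 16.2 CPM at 0 h. Both differences were negative (-0.78 and -2.49; adjusted p = 0.0167 and 0.0179). The secreted defence protein PR1 was too variable to call, with 1327, 569.9 and 1524 CPM at 24 h and 555, 601 and 748 CPM at 0 h (0.84 ± 0.66, adjusted p = 0.294). AZI1, a lipid-transfer protein of systemic immunity, was the exception, with 111, 108 and 65.4 CPM at 24 h and 1.61, 5.73 and 1.21 CPM at 0 h (5.09 ± 0.42), against 2.15, 2.17 and 1.47 CPM at 24 h and 0.471, 1.07 and 0.900 CPM at 0 h in the scrambled line (difference 3.85 ± 0.84, adjusted p = 0.00347).

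At the cell surface, several immune receptors rose in the NAA50 line. Of 32 genes of pattern-triggered immunity, 12 rose (37.5%, against 28.1% over all tested genes) and 2 fell, with a median of 0.65 in either line. The 2 became 1 without library 2 or 3 at 0 h or library 1 at 24 h. More of the 32 rose in the scrambled line, 18 (56.2%, against 27.6% over all tested genes), and 1 fell there. The difference between the lines was negative in 8 (25%, against 15.1% over all tested genes) and positive in 0 (edgeR, with 3 at an unadjusted p under 0.05 and 1 by DESeq2). The 8 became 4 without library 1 of the scrambled line at 24 h. They became 5 without library 1 or 3 at 0 h or 1 or 2 at 24 h of the NAA50 line, without library 2 of the scrambled line at 0 h or at 24 h, or with only the groups compared in the fit. The oxidase RBOHD, which makes the oxidative burst, had 596, 478 and 333 CPM at 24 h and 98.8, 64.2 and 47.8 CPM at 0 h (2.74 ± 0.28). The receptor-like protein RLP23 had 1633, 1226 and 872 CPM at 24 h and 223, 191 and 236 CPM at 0 h (2.52 ± 0.39), the elongation-factor receptor EFR rose by 1.43 and the co-receptor BAK1 by 1.29. In none of these 4 did the difference from the scrambled line pass (adjusted p = 0.0652, 0.492, 0.5 and 0.0842). RBOHD, however, passed without library 1 at 0 h or 3 at 24 h of the NAA50 line or library 1 of the scrambled line at 0 h (0.0158 to 0.0470). BAK1 passed without library 3 of the NAA50 line or 2 of the scrambled line at 24 h (0.0424 and 0.0473). Downstream, FRK1, a kinase gene used as a reporter of this response, was at 44.01, 25.1 and 56.8 CPM at 24 h and 21.2, 31.1 and 38.5 CPM at 0 h and was not called (0.47 ± 0.45, adjusted p = 0.398). It was at 64.7, 103 and 52.3 CPM at 24 h and 4.43, 1.29 and 11.6 CPM at 0 h in the scrambled line (difference -3.16 ± 0.68, adjusted p = 0.0031).

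The glucosinolates, sulfur-rich defence compounds of the cabbage family, were read by pathway. Of 19 genes of the methionine-derived (aliphatic) branch, 9 fell and 2 rose in the NAA50 line, with a median of -1.10. These shares were 47.4% and 10.5%, against 26.4% and 28.1% over all tested genes. The 2 became 1 without library 1 or 3 at 0 h or library 3 at 24 h. The group's sum is given next. For the 19 genes it was 396.4 to 756.6 CPM in the 24 h libraries, against 991.6 to 1674 CPM in the 0 h libraries. In the scrambled line the sum was 946.8 to 1893 CPM at 24 h, against 747.7 to 985.8 CPM at 0 h, and the median was 0.71. The difference between the lines was negative in 14 of 19 (73.7%, against 15.1% over all tested genes) and positive in 0 (edgeR; 0 also at an unadjusted p under 0.05 and by DESeq2). The chain-elongation enzyme MAM1 had 50.2, 25.1 and 94.1 CPM at 24 h and 175, 298 and 162 CPM at 0 h, and the aminotransferase BCAT4 25.7, 12.29 and 52.98 CPM at 24 h and 99.4, 169.6 and 100 CPM at 0 h. Their 24 h libraries lay below their 0 h libraries, and the differences from the scrambled line were -2.49 ± 0.61 and -2.79 ± 0.70 (adjusted p = 0.00654 and 0.00786). The core enzyme CYP83A1 and the aminotransferase BCAT3 fell, with changes of -1.67 and -1.85. Of the MYB regulators of this branch, MYB28 had 17.5, 18.1 and 20.4 CPM at 24 h and 47.5, 53.6 and 42.6 CPM at 0 h (-1.36 ± 0.18). MYB29 had 3.73, 3.69 and 4.77 CPM at 24 h and 16.3, 23.2 and 12.8 CPM at 0 h (-2.08 ± 0.30). The difference from the scrambled line passed for MYB29 (-1.65, adjusted p = 0.00681) and not for MYB28 (-0.58, adjusted p = 0.089, or 0.0282 without library 2 of the scrambled line at 24 h). IMS2 rose (1.37).

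In the tryptophan-derived branch and camalexin synthesis, 7 of 20 genes rose (35.0%, against 28.1%) and 3 fell. Its regulators moved apart. MYB122 had 13.8, 8.04 and 6.04 CPM at 24 h and 0.170, 0.668 and 1.45 CPM at 0 h (3.56 ± 0.68), and MYB34 0.884, 0.851 and 1.49 CPM at 24 h and 7.12, 6.11 and 9.97 CPM at 0 h (-2.81 ± 0.36). Neither pair of groups overlapped, which was so in 62.4% of all tested genes. Of the 2 homologous enzymes that open the branch, CYP79B3 fell (-2.45 ± 0.44), further than in the scrambled line (-1.99, adjusted p = 0.02), while CYP79B2 was not called (0.57 ± 0.35, adjusted p = 0.18).

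**Figure D4:**
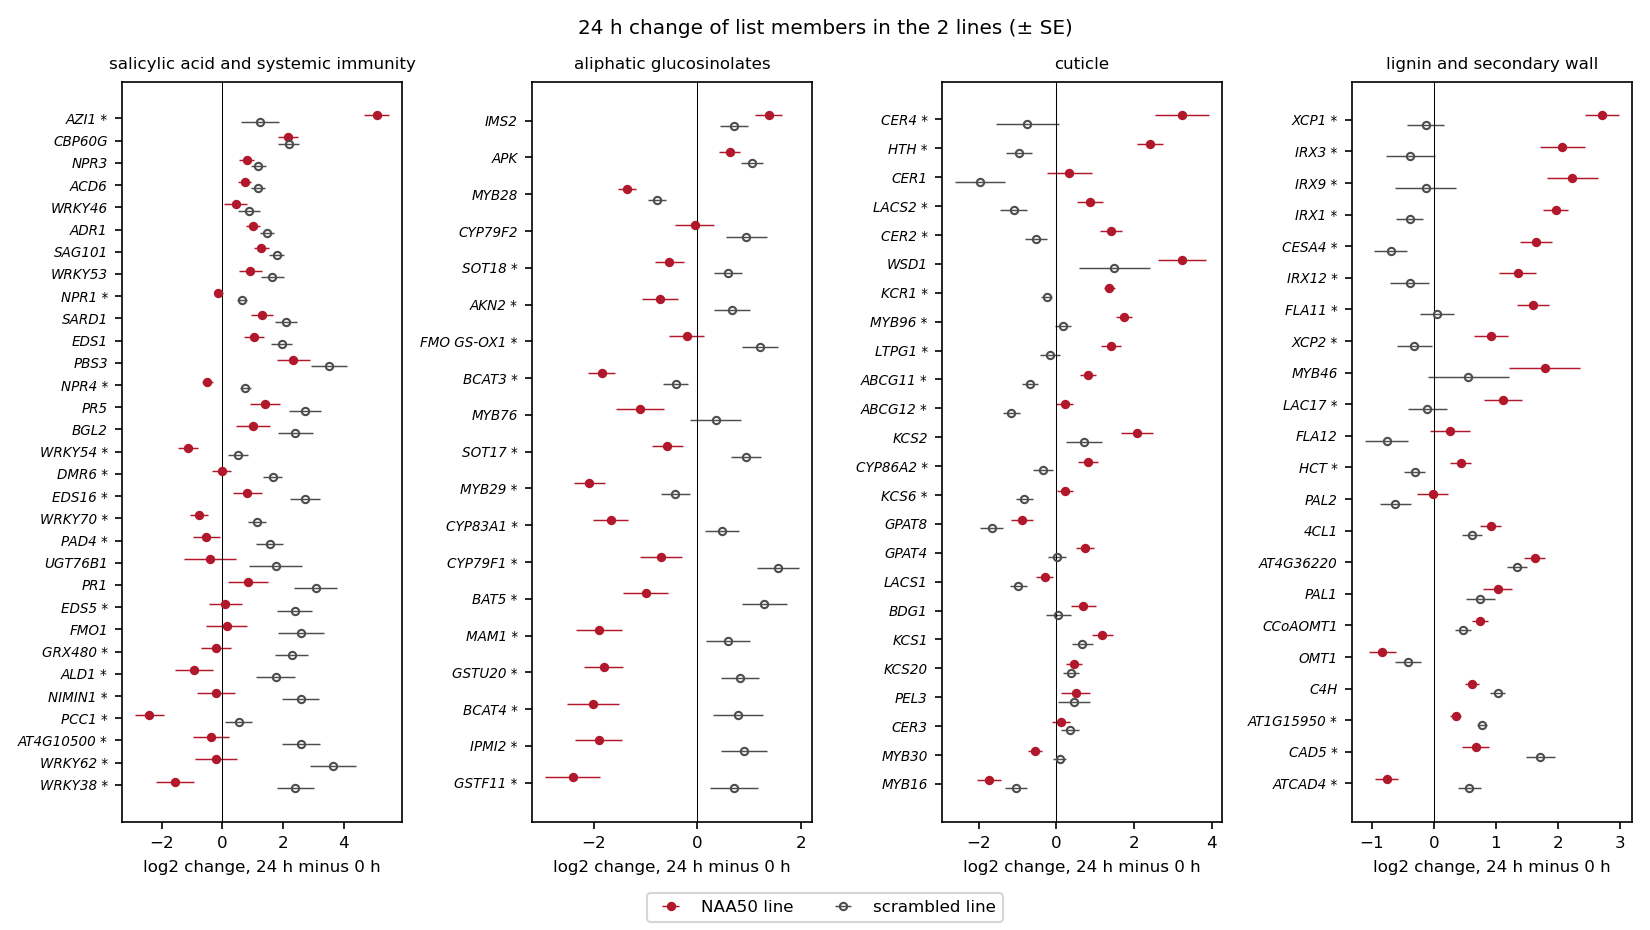
Log2 change from 0 to 24 h ± SE in the NAA50 line (red) and the scrambled line (grey) for the tested genes of 4 groups: salicylic acid, aliphatic glucosinolates, cuticle, and lignin and secondary wall, with an asterisk where the 2 changes differed at an adjusted p under 0.05. The red points lie left of the grey ones in most salicylic acid and glucosinolate genes and right of them in most cuticle and secondary wall genes.

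For jasmonate, the wound hormone, 9 of 28 genes rose and 5 fell (32.1% and 17.9%, against 28.1% and 26.4% over all tested genes), with a median of 0.09. The 5 became 2 or 3 without library 2 at 0 h or any 1 library at 24 h. The JAZ repressors, which the hormone itself induces, were divided. JAZ1 had 631, 501 and 392 CPM at 24 h and 123, 103 and 64.96 CPM at 0 h, and JAZ10 147, 136 and 96.2 CPM at 24 h and 10.8, 3.82 and 1.69 CPM at 0 h. Both were higher in each 24 h library, with changes of 2.39 ± 0.46 and 4.53 ± 0.57, and JAZ1 also against the scrambled line (2.24, adjusted p = 0.0142). JAZ3 fell by 1.81 and differed from the scrambled line by -1.46 ± 0.37 (adjusted p = 0.00818). CYP94B3, which inactivates the active jasmonate, had 233, 213 and 136 CPM at 24 h and 16.1, 0.859 and 2.81 CPM at 0 h (4.86 ± 0.89; difference 5.04 ± 1.27, adjusted p = 0.00808). The synthesis gene AOC3 rose by 2.73, and the jasmonate receptor gene COI1 was at 50.7 CPM at 24 h and 48.4 CPM at 0 h. For ethylene, 10 of 23 genes rose (43.5%, against 28.1%) and 3 fell, or 1 without library 1 or 2 at 24 h. ACS8, which makes the precursor ACC, rose by 2.31, and the receptors EIN4 (1.01) and ETR1 (0.63) rose, while the response factor ERF104 fell to 13.8, 18.7 and 13.04 CPM at 24 h, against 172, 86.6 and 75.7 CPM at 0 h (-2.87 ± 0.29).

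Hormone genes of growth moved in both directions. Of 33 auxin genes 14 fell (42.4%, against 26.4% over all tested genes) and 9 rose, and the difference between the lines was positive in 8 and negative in 10. The efflux carriers were divided: PIN3 had 239, 248 and 187 CPM at 24 h and 99.9, 83.8 and 100.5 CPM at 0 h and rose (1.25 ± 0.12), while PIN4 had 9.14, 15.2 and 14.3 CPM at 24 h and 92.8, 88.97 and 87.7 CPM at 0 h and fell (-2.80 ± 0.23). Each stood out against the scrambled line, PIN3 by 1.52 and PIN4 by -1.21 (adjusted p = 1.73e-05 and 0.00822). The influx carrier LAX2 fell to 0.0630 CPM at 24 h, under the level of 3 counts, against 3.36 CPM at 0 h. Of the Aux/IAA repressors, IAA7 and AXR3 (IAA17) fell, with changes of -1.28 and -1.99, while IAA29 rose by 1.43 in the NAA50 line and fell by 3.35 in the scrambled line. Of 28 genes of shade, gibberellin and brassinosteroid signalling 14 fell and 8 rose (50.0% and 28.6%, against 26.4% and 28.1%). The 8 became 5 without library 2 at 0 h. PIF4, a light-regulated promoter of elongation, had 15.8, 23.4 and 21.8 CPM at 24 h and 148, 141 and 137 CPM at 0 h (-2.80 ± 0.20), and PIL5 (PIF1) had a change of -2.80. Both fell further than in the scrambled line (adjusted p = 0.00254 and 0.00185). The brassinosteroid enzyme CPD fell in both lines (-1.77 in the NAA50 line and -1.60 in the scrambled line), and the DELLA growth repressors RGL1 and RGL2 rose (1.35 and 2.34).

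Of 19 cytokinin genes 5 rose, 3 without library 2 at 24 h, and 6 fell (26.3% and 31.6%, close to the 28.1% and 26.4% over all tested genes). The synthesis gene IPT3 rose by 1.51 and the degradation gene CKX5 by 2.16. The response regulator ARR4 had 69.4, 78.1 and 106 CPM at 24 h and 216, 194 and 202 CPM at 0 h and fell (-1.27 ± 0.14), against the scrambled line as well (-1.64, adjusted p = 3.53e-05). Of 24 cell division genes 6 rose and 6 fell (25.0% each, against 28.1% and 26.4%). The difference between the lines was positive in 5 (20.8%, against 14.7% over all tested genes). It was negative in 0 by edgeR (1 at an unadjusted p under 0.05 and 0 by DESeq2). The 5 were 3 D-type cyclins of the G1 phase and 2 inhibitors of cyclin-dependent kinases. CYCD3;3 had 46.7, 44.6 and 30.7 CPM at 24 h and 5.17, 6.40 and 4.42 CPM at 0 h (2.93 ± 0.23), CYCD1;1 rose by 1.96 and the kinase inhibitor ICK1 by 1.23, and these 3 differed from the scrambled line (adjusted p = 2.33e-06, 0.00191 and 1.94e-05). The replication genes gave no such change: MCM2 was at 5.68 CPM at 24 h and 6.35 CPM at 0 h, and PCNA1 at 1.44 CPM at 24 h and 1.65 CPM at 0 h, neither of them called.

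Many genes of the primary wall, among them genes of enzymes that loosen it, fell. Of 39 genes 19 fell (48.7%, against 26.4% over all tested genes) and 6 rose, with a median of -0.94. In the scrambled line 15 fell and 4 rose (38.5% and 10.3%, against 26.5% and 27.6% over all tested genes), with a median of -0.74. The difference between the lines was positive in 8 and negative in 9 (20.5% and 23.1%, against 14.7% and 15.1% over all tested genes). XTH7, which cuts and rejoins xyloglucan, had 1.08, 5.86 and 5.37 CPM at 24 h and 80.5, 110.5 and 81.8 CPM at 0 h (-4.44 ± 0.41), and its relative XTH6 0.295, 9.46 and 9.17 CPM at 24 h and 150.2, 258 and 130.2 CPM at 0 h (-4.81 ± 0.63). Both fell further than in the scrambled line (differences -3.43 and -3.79, adjusted p = 2.11e-04 and 0.00236). The expansin EXPA1 had 16.5, 41.03 and 40.98 CPM at 24 h and 284, 253 and 241 CPM at 0 h and fell in both lines (-2.98 in the NAA50 line and -2.46 in the scrambled line). The cellulose synthases of the primary wall, CESA1 and CEV1 (CESA3), also fell in both (-1.02 and -1.07 in the NAA50 line, -1.24 and -1.34 in the scrambled line). XTH19 went against its family, with 139, 125 and 73.5 CPM at 24 h and 5.76, 2.67 and 7.48 CPM at 0 h (4.39 ± 0.57; difference 4.32 ± 0.88, adjusted p = 0.00216).

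The secondary wall went the other way. Of 22 genes of lignin and the secondary wall 18 rose (81.8%, against 28.1%) and 2 fell, with a median of 0.98 in the NAA50 line and -0.12 in the scrambled line. Between the lines the change differed upwards in 10 (45.5%, against 14.7%) and downwards in 3. The 3 cellulose synthases of the xylem wall, IRX1 (CESA8), IRX3 (CESA7) and CESA4, act together. IRX1 had 16.8, 18.8 and 15.1 CPM at 24 h and 3.98, 3.63 and 5.31 CPM at 0 h, IRX3 13.5, 19.7 and 11.4 CPM at 24 h and 2.88, 3.15 and 4.50 CPM at 0 h, and CESA4 18.96, 26.3 and 19.1 CPM at 24 h and 7.54, 7.25 and 5.87 CPM at 0 h. All 24 h libraries of these 3 genes lay above all 0 h libraries, where 62.4% of all tested genes had no overlap. The changes were 1.96 ± 0.20, 2.07 ± 0.37 and 1.64 ± 0.26. None rose in the scrambled line (-0.39, -0.38 and -0.69, with adjusted p of the differences 5.18e-05, 0.00342 and 3.47e-04). XCP1, a cysteine protease of dying vessel cells, had 32.2, 41.7 and 29.7 CPM at 24 h and 5.17, 6.21 and 4.50 CPM at 0 h (2.71 ± 0.28). A pair of lignin enzymes rose in both lines, AT4G36220 (ferulate 5-hydroxylase) by 1.62 in the NAA50 line and 1.34 in the scrambled line, and PAL1, the entry enzyme of phenylpropanoids, by 1.03 and 0.75.

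The cuticle, the wax and cutin layer made by epidermal cells, stood out against the scrambled line in the same direction. Of 24 genes 13 rose and 3 fell (54.2% and 12.5%, against 28.1% and 26.4%), with a median of 0.77. In the scrambled line 1 rose and 9 fell (4.17% and 37.5%, against 27.6% and 26.5% over all tested genes), with a median of -0.30. The difference between the lines was positive in 11 (45.8%, against 14.7% over all tested genes) and negative in 0 (edgeR; 1 at an unadjusted p under 0.05 and 0 by DESeq2). KCR1, a reductase of very-long-chain fatty acid synthesis, had 116, 138 and 101 CPM at 24 h and 45.8, 44.96 and 47.8 CPM at 0 h (1.36 ± 0.14), and the wax regulator MYB96 82.5, 100 and 63.3 CPM at 24 h and 29.2, 23.8 and 20.7 CPM at 0 h (1.74 ± 0.20). The 24 h libraries were the higher ones in both, and both differed from the scrambled line (adjusted p = 4.90e-05 and 8.75e-04). The cutin gene HTH rose by 2.41, the wax gene CER2 by 1.41, and the lipid exporter ABCG11 by 0.82, while the epidermal factor MYB16 fell (-1.73 ± 0.31). CER1, which makes the alkanes of wax, had 69.9 CPM at 24 h and 55.4 CPM at 0 h and was not called (0.33 ± 0.58, adjusted p = 0.652). Of 14 flavonoid genes 9 rose and 4 fell (64.3% and 28.6%, against 28.1% and 26.4%). The anthocyanin regulator AT1G56650 (PAP1) had 62.6, 94.1 and 41.4 CPM at 24 h and 1.19, 1.62 and 1.04 CPM at 0 h (5.68 ± 0.43), while its repressor MYBL2 fell to 10.3, 13.1 and 22.8 CPM at 24 h, against 153, 173 and 126 CPM at 0 h (-3.28 ± 0.29).

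Of 41 genes of starch and sugar 13 rose and 12 fell (31.7% and 29.3%, close to the 28.1% and 26.4% over all tested genes). The difference between the lines was positive in 12 and negative in 8 (29.3% and 19.5%, against 14.7% and 15.1% over all tested genes). The starch debranching enzyme ISA3 had 86.3, 68.8 and 71.02 CPM at 24 h and 15.6, 12.31 and 20.7 CPM at 0 h (2.21 ± 0.17), and SUC2, which loads sucrose into the phloem, 910.1, 905 and 545 CPM at 24 h and 219.7, 212 and 273 CPM at 0 h (1.74 ± 0.17). Both rose over the scrambled line (3.03 and 1.63, adjusted p = 6.76e-07 and 1.85e-04). The hexose importer STP1 had 44.9, 60.3 and 144 CPM at 24 h and 539, 560.1 and 444 CPM at 0 h and the sucrose exporter SWEET12 0, 0 and 1.86 CPM at 24 h and 18.1, 23.6 and 24.6 CPM at 0 h. Both fell (-2.63 ± 0.32 and -4.94 ± 0.73), further than in the scrambled line (adjusted p = 0.00208 and 0.0185). Its close relative SWEET11 was at 174 CPM at 24 h and 159 CPM at 0 h and was not called (0.13 ± 0.12, adjusted p = 0.389).

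Nutrient genes were read by element. Of 12 genes of nitrogen assimilation 3 rose and 4 fell (25% and 33.3%, close to the 28.1% and 26.4% over all tested genes). The repressor of nitrogen responses LBD38 had 38.9, 40.8 and 38.9 CPM at 24 h and 14.2, 13.2 and 14.3 CPM at 0 h (1.50 ± 0.16), while the chloroplast glutamine synthetase GS2 fell in both lines (-1.09 in the NAA50 line and -0.88 in the scrambled line). Of 9 sulfur genes 5 rose and 1 fell (55.6% and 11.1%). The sulfate-reducing enzyme APR3 had 118, 145 and 143 CPM at 24 h and 22.6, 14.03 and 23.5 CPM at 0 h, and it rose by 2.75 ± 0.19 in the NAA50 line and 2.87 ± 0.19 in the scrambled line. Of 18 iron and zinc genes 7 rose and 6 fell (38.9% and 33.3%). The zinc and iron transporter IRT3 had 42.9, 43.9 and 37.3 CPM at 24 h and 2.80, 1.91 and 2.57 CPM at 0 h (4.08 ± 0.23) and NAS1, which makes the metal chelator nicotianamine, 159, 116 and 83.6 CPM at 24 h and 14.3, 14.6 and 19.6 CPM at 0 h (2.88 ± 0.36). The zinc exporter HMA2 had 0.295, 0.378 and 8.94 CPM at 24 h and 39.2, 29.5 and 32.6 CPM at 0 h (-3.29 ± 0.61). All 3 differed from the scrambled line, IRT3 and NAS1 upwards and HMA2 downwards (3.88, 2.10 and -3.79; adjusted p = 2.09e-06, 0.00577 and 0.00279).

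Protein quality control was read from the endoplasmic reticulum and the cytosol. Of 30 genes of the endoplasmic reticulum stress response 9 rose (30%, close to the 28.1% over all tested genes) and 1 fell. The 1 became 3 by DESeq2, 0 without library 3 at 0 h or 2 or 3 at 24 h, 2 without library 2 at 0 h and 3 without library 1 at 24 h. The sensor IRE1A had 248, 239 and 165 CPM at 24 h and 70.3, 61.6 and 63.9 CPM at 0 h (1.73 ± 0.17), and the co-chaperone BAG7 315, 333 and 247 CPM at 24 h and 86.7, 98.8 and 83.6 CPM at 0 h (1.73 ± 0.12). Both rose over the scrambled line (1.22 and 2.20, adjusted p = 0.00131 and 5.44e-07). The membrane-bound factors BZIP60, BZIP28 and BZIP17 rose in the NAA50 line (1.42, 1.01 and 1.24) without a detectable difference from the scrambled line (adjusted p = 0.575, 0.226 and 0.751). The chaperones BIP1, BIP2 and BIP3 were at 293, 287 and 48.6 CPM at 24 h, against 348, 284 and 85.02 CPM at 0 h, and none was called; BIP1 and BIP2 are near-identical in sequence. Of 25 heat shock and cytosolic folding genes 11 rose (44.0%) and 0 fell by edgeR (0 at an unadjusted p under 0.05, 1 by DESeq2). The plastid disaggregase CLPB3 had 813, 723 and 604 CPM at 24 h and 216, 230.3 and 214 CPM at 0 h (1.70 ± 0.13; difference 1.48 ± 0.18, adjusted p = 3.99e-05), and the heat shock factor HSFA2 rose by 2.69. Of 21 cytosolic ribosome genes 1 rose and 6 fell (4.76% and 28.6%, against 28.1% and 26.4% over all tested genes). The 6 became 10 without library 1 at 0 h. None of the 21 differed between the lines by edgeR (1 at an unadjusted p under 0.05, 0 by DESeq2), against 29.8% of all tested genes.

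Of 30 genes of oxidative stress and detoxification 10 rose, 5 without library 2 at 0 h, and 3 fell (33.3% and 10%, against 28.1% and 26.4%). In the scrambled line the median of these genes was 1.46, against 0.31 in the NAA50 line. The difference was positive in 3 and negative in 10 (10% and 33.3%, against 14.7% and 15.1% over all tested genes). The 10 became 5 without library 3 of the NAA50 line at 0 h and 6 without its library 2 at 24 h, and also 6 without library 1 at 0 h or 2 at 24 h of the scrambled line. The alternative oxidase AOX1A had 197, 172 and 163 CPM at 24 h and 56.9, 40.9 and 75.1 CPM at 0 h (1.62 ± 0.19), and the ascorbate peroxidase APX1 rose by 1.07. AT1G20620 (CAT3), a catalase, fell to 419, 414 and 594 CPM at 24 h, against 2071, 1631 and 1577 CPM at 0 h (-1.89 ± 0.19; difference -1.60 ± 0.26, adjusted p = 3.77e-04). NAA50 acts on protein N-termini, where the N-degron pathway also reads its signals. Of 11 genes of hypoxia and that pathway 1 rose (2 without library 1 or 3 at 0 h or 3 at 24 h) and 3 fell (9.09% and 27.3%, against 28.1% and 26.4%). RAP2.2, an ethylene response factor, rose (1.50 ± 0.12) and EBP (RAP2.3) fell (-1.64 ± 0.27). The recognition component PRT6 was at 122 CPM at 24 h and 121 CPM at 0 h and the arginyl transferase AT5G05700 (ATE1) at 28.1 CPM at 24 h and 31.1 CPM at 0 h.

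**Figure D5:**
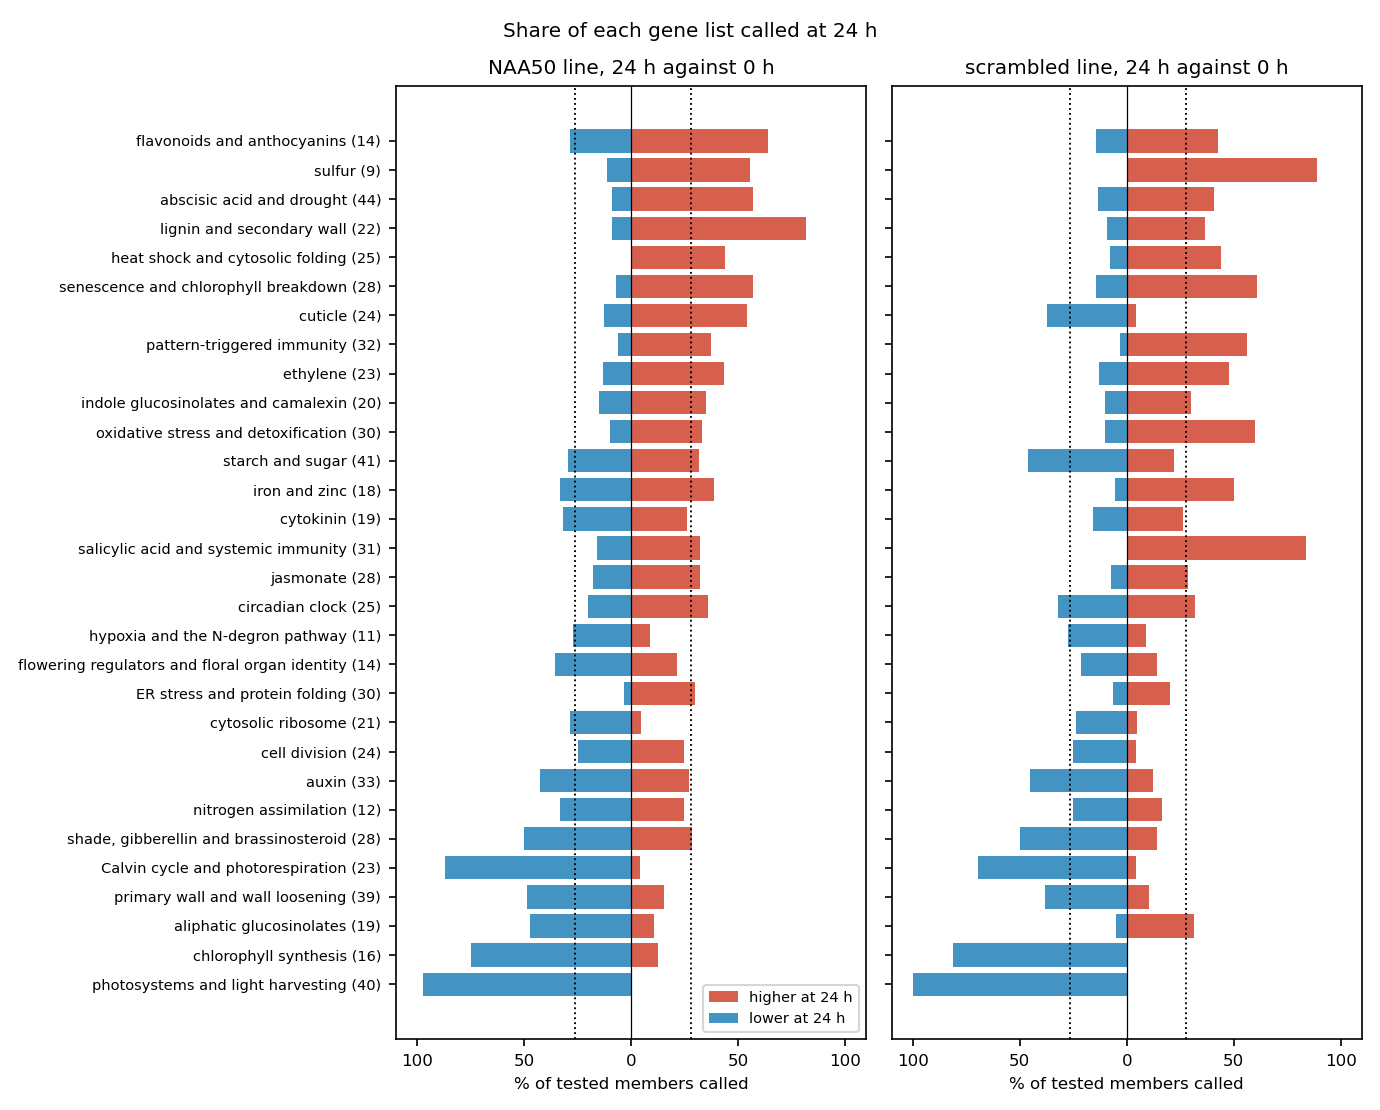
Percentage of tested genes called higher (red) and lower (blue) at 24 h over 0 h, by gene group with the number tested in parentheses, in the NAA50 line (left) and the scrambled line (right), for groups of at least 9 tested genes. Dotted lines mark the shares over all tested genes (28.1% higher and 26.4% lower in the NAA50 line). Lignin and secondary wall and the flavonoids reach furthest to the higher side and the photosystems to the lower side in the NAA50 line.

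By their labels the times stand 24 h apart, so the clock genes were read at nominally the same phase of the light cycle. Of 25 clock genes 9 rose and 5 fell (36.0% and 20%, against 28.1% and 26.4%), with a median of 0.02. In the scrambled line 8 rose and 8 fell (32% each, against 27.6% and 26.5% over all tested genes). The morning genes LHY and CCA1 were higher in both lines, CCA1 by 1.01 in the NAA50 line and 0.84 in the scrambled line. LHY had 542, 498 and 508 CPM at 24 h and 164, 138 and 162 CPM at 0 h in the NAA50 line (1.74 ± 0.10), and 611, 589 and 656 CPM at 24 h and 149, 142 and 138 CPM at 0 h in the scrambled line (2.11 ± 0.10). The 2 changes did not differ detectably (difference -0.37 ± 0.14, adjusted p = 0.0501), though the p was 0.0279 without library 2 of the NAA50 line at 0 h and 0.0457 without library 2 of the scrambled line at 24 h. GI, which links the clock to flowering, had 143, 129 and 97.7 CPM at 24 h and 16.4, 17.7 and 20.4 CPM at 0 h (2.76 ± 0.15) and rose more than in the scrambled line (1.35 ± 0.20, adjusted p = 1.83e-04). The clock photoreceptor ZTL was at 54.3 CPM at 24 h and 54.1 CPM at 0 h. Of 14 flowering regulators 3 rose and 5 fell (21.4% and 35.7%, against 28.1% and 26.4%): the floral repressor SVP fell to 46.6, 41.1 and 50.4 CPM at 24 h, against 147, 119 and 114 CPM at 0 h (-1.46 ± 0.11), while AGL24 rose (1.27 ± 0.21).

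MIR319a is shown with its targets because a microRNA locus was among the strongest increases. The precursor had 40.1, 52.6 and 25.6 CPM at 24 h and 0.848, 0.573 and 0.322 CPM at 0 h in the NAA50 line, with 38.2, 33.95 and 28.6 CPM at 12 h, and at most 0.751 CPM in any scrambled library at 0 or 24 h. All induced libraries lay above all others, and the change was 6.06 ± 0.41 (adjusted p = 2.18e-08). The difference from the scrambled line (5.66 ± 1.19, adjusted p = 0.00268) did not hold without library 2 of that line at 0 h (adjusted p = 0.289). Artificial microRNAs are commonly built in the MIR319a precursor. The labels used here do not name the backbone, and reads of such a transgene cannot be told apart from those of the natural gene. The counts are of polyadenylated precursor RNA, not of the mature microRNA. Below are the natural mature miR319a, with its seed (bases 2 to 8) in capitals, and the stretch of each TCP target transcript that pairs with it best. Bases of each target that form Watson-Crick pairs are in capitals. All are 5′ to 3′ and from the RefSeq TAIR10.1 genome (miR319a at chr4:12353109-12353129, plus strand).
miR319a: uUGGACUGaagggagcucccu
TCP10: AaGGgGuaCCCUUCAGUCCAg
TCP2: caGGgGgaCCCUUCAGUCCAA
TCP24: uaGGgGgaCCCUUCAGUCCAA
TCP3: gaGGgGucCCCUUCAGUCCAu
TCP4: gaGGgGucCCCUUCAGUCCAg
Of 21 bases, 16 paired in TCP10, TCP2 and TCP24 and 15 in TCP3 and TCP4, and the same run of the seed pairs in all 5. The 5 target genes, transcription factors that restrain leaf growth, did not change as one. TCP10 fell to 12.08, 14.3 and 22.8 CPM at 24 h, against 47.8, 55.7 and 45.02 CPM at 0 h (-1.59 ± 0.22), and TCP2 fell to 15.8, 16.4 and 18.6 CPM at 24 h, against 32.2, 32.7 and 32.3 CPM at 0 h (-0.93 ± 0.15). TCP3 fell by 0.93, though it overlaps a gene on the opposite strand over 78.7% of its length. TCP4, in contrast, had 55.7, 57.01 and 44.3 CPM at 24 h and 26.5, 27.2 and 27.6 CPM at 0 h and rose (0.95 ± 0.13), and TCP24 was not called (-0.07 ± 0.14, adjusted p = 0.694). All 5 differed between the lines: TCP10, TCP2 and TCP3 were lower than in the scrambled line (-1.62, -0.61 and -0.76, adjusted p = 0.00125, 0.0337 and 0.0226) and TCP4 and TCP24 higher (0.73 and 0.84, adjusted p = 0.00713 and 0.00563). TCP24 had fallen in the scrambled line (-0.91 ± 0.14). The call of TCP3 was lost without library 2 at 0 h or 1 at 24 h of the NAA50 line or library 3 of the scrambled line at 24 h (adjusted p = 0.0564 to 0.0589). That of TCP2 was lost without any 1 library of the NAA50 line at 0 h, its library 1 or 2 at 24 h, library 3 of the scrambled line at 0 h or library 1 or 3 of that line at 24 h (adjusted p = 0.0542 to 0.0823).

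The promoters of CYS2, the gene with the largest increase at that level of expression, and of LHB1B1, the photosystem gene with the strongest fall, are given as the 250 bases upstream of each gene's start in the RefSeq TAIR10.1 annotation. Capitals in CYS2 mark the G-box CACGTG, a further ACGTG core (reverse strand) and the overlapping pair of GGNCCC matches, and in LHB1B1 the ACGTG cores and AAAAATCT.
CYS2: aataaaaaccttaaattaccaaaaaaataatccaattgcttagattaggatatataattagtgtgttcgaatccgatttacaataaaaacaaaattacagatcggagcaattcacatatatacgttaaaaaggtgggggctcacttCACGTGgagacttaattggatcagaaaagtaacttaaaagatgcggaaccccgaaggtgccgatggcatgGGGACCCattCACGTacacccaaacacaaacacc
LHB1B1: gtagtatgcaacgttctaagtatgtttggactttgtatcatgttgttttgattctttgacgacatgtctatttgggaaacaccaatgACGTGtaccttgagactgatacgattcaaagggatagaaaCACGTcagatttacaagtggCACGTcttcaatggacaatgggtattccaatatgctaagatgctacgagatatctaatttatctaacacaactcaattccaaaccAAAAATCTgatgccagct
The CYS2 window is chr2:13609956-13610205 on the minus strand and overlaps the gene AT2G31981, and the LHB1B1 window is chr2:14524357-14524606 on the plus strand. ACGTG is the core of the ABA-responsive element and of the G-box. Searched on both strands in the 250-base windows, it was in 30.3% of the genes that rose at least 2-fold, in 22.5% of those that fell at least 2-fold and in 23.8% of all 18195 tested genes with a window. It was in 52.3% of the ABA group and 37.5% of the photosystem group, so the core was present in promoters of genes that moved in opposite directions. GATAAG, the I-box of light-regulated genes, was in 11.1% of the genes that rose, 17.3% of those that fell and 12.5% of all. TTGAC, the core bound by WRKY factors, was in 49.8%, 40.7% and 45.0%, and AAAATATCT, the evening element of the clock, in 2.46%, 3.63% and 2.51%, in the same order. These shares describe letters in windows, not binding.

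Cell type markers were read beside the groups they accompany, since a bulk leaf sample cannot tell fewer or more cells of a type from less or more RNA per cell. The 5 xylem vessel markers tested all rose (100%, against 28.1% over all tested genes). The sum of the list was 100.8 to 137.4 CPM in the 24 h libraries, against 31.3 to 37.5 CPM in the 0 h libraries. The scrambled line was at 18.4 to 43.7 CPM at 24 h, against 30.9 to 46.8 CPM at 0 h. The sums did not overlap in the NAA50 line. These 5 genes are also members of the secondary wall group, and the part of vessel cells in that group's change was not tested. Of 7 guard cell markers 0 rose by edgeR (0 also at an unadjusted p under 0.05 and by DESeq2). In that list 3 fell (42.9%, against 26.4% over all tested genes). The sums of the list, 36.9 to 39.6 CPM at 24 h and 39.3 to 43.3 CPM at 0 h, overlap. Of 7 phloem markers 4 rose and 1 fell (57.1% and 14.3%, against 28.1% and 26.4%). The 4 became 1 without library 1 at 0 h and 2 without library 3 at 0 h or 2 or 3 at 24 h. The 1 lower call became 2 without library 1 or 3 at 0 h or 2 at 24 h. SUC2 rose as given above, the proton pump HA3 fell (-0.91 ± 0.10), and the sum of 957.7 to 1369 CPM at 24 h, against 820.6 to 930.6 CPM at 0 h, was mostly SUC2. Of 5 epidermis and trichome markers 1 rose and 3 fell (20% and 60%, against 28.1% and 26.4%). CPC, a small inhibitor of trichome fate in leaves, had 21.3, 23.8 and 17.1 CPM at 24 h and 0.424, 0.955 and 1.04 CPM at 0 h (4.66 ± 0.26). The epidermal factor ATML1 fell (-1.26 ± 0.22). The epidermal sum was 80.95 to 102.2 CPM at 24 h and 101.6 to 121.8 CPM at 0 h in the NAA50 line. In the scrambled line it was 70.55 to 93.98 CPM at 24 h and 125.2 to 147.9 CPM at 0 h. The part of epidermal cells in the change of the cuticle genes was not tested. Seed and embryo markers stayed at 0.393 to 1.34 CPM at 24 h in sum, against 0.286 to 1.37 CPM at 0 h.

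Among the tested members of 2 small families, 1 gene each stood far above the rest. The lists of both families were chosen with earlier results of these data known, so their shares describe them and test nothing. All 4 cystatins tested, CYS2 among them, rose (100%, against 28.1% over all tested genes). CYS3, CYS5 and CYS7 were left out, since their symbols did not match their loci in the annotation. CYS1, at 215, 222 and 148 CPM at 24 h and 78.2, 85.8 and 89.3 CPM at 0 h (1.21 ± 0.13), and AT4G16500 (1.39 ± 0.22) had smaller changes than CYS2. CYSB (0.52 ± 0.09) did not differ detectably from the scrambled line (adjusted p = 0.869). Of 7 PIRL genes tested, leucine-rich repeat proteins of unknown partners, 3 rose and 1 fell (42.9% and 14.3%, against 28.1% and 26.4% over all tested genes). PIRL8 had 39.1, 45.2 and 38.97 CPM at 24 h and 1.95, 0.477 and 1.04 CPM at 0 h (5.11 ± 0.30; difference 4.93 ± 0.72, adjusted p = 1.83e-04), while PIRL4 fell (-1.39 ± 0.18).

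Where the course stood at 12 h was read from the 3 libraries of the NAA50 line at that time, taken 12 h from both other times and so at another hour of the day. Between 12 and 24 h, 3678 genes were called (20.1%), 1901 higher (10.4%) and 1777 lower (9.69%). Scaling by library size alone turned the share of higher calls to 39.7%, from 51.7%. Leaving out library 1 or 2 at 12 h gave 1187 or 1135 higher and 1025 or 976 lower calls, and leaving out library 1 at 24 h gave 1069 lower. CYS2 was already at 1259, 1397 and 1298 CPM at 12 h and UMAMIT8 at a mean of 28.3 CPM. GAD4 was at 492, 522 and 497 CPM at 12 h, and LHB1B1 had reached 55.4, 72.5 and 70.6 CPM by then. No photosystem gene was called between 12 and 24 h by edgeR, with 3 lower at an unadjusted p under 0.05, 3 under library-size scaling and 2 by DESeq2. The secondary wall genes came later: 16 of 22 rose between 12 and 24 h (72.7%, against 10.4% over all tested genes). By edgeR 0 fell (1 at an unadjusted p under 0.05, 0 by DESeq2), with IRX1 at 3.91, 4.39 and 4.43 CPM at 12 h. Of 24 cell division genes 10 rose between 12 and 24 h and 3 fell (41.7% and 12.5%, against 10.4% and 9.69% over all tested genes). Of 25 clock genes 10 fell (40%, against 9.69%), 6 without library 2 at 12 h. Some genes passed through a peak or trough. SRG3, which overlaps a gene on the opposite strand over 36.9% of its length, had 5.43, 2.39 and 4.34 CPM at 0 h, 44.6, 48.8 and 29.1 CPM at 12 h and 3.54, 5.67 and 4.70 CPM at 24 h. Its scrambled means were 2.09, 36.8 and 2.05 CPM at the same times. EXLA1, an expansin-like gene, had 35.1, 43.2 and 21.4 CPM at 0 h, 2.03, 1.73 and 3.53 CPM at 12 h and 35.2, 38.8 and 32.3 CPM at 24 h. The groups at 0 and 24 h were close in both genes, and the 12 h libraries stood apart.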

How the data were processed

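The authors deposited raw read counts per gene for 18 leaf libraries (2 lines, 3 times, 3 samples each), per the labels and the values (whole numbers with unequal totals). The submitters' processing notes name Trimmomatic, STAR, DESeq2 and TAIR10. For tool versions, the program that counted reads and its treatment of strand, no statement was found (not given in the sources used here). Reads of genes that overlap on opposite strands therefore cannot be told apart. Among genes named, GAD4, AT1G15830, SARD1, BCAT4, PIL5, CKX5, IRX1, CER2, ABCG11, STP1 and CYSB overlap another gene over 10.6 to 21.0% of their length. All 18 columns were used. Symbols, positions and sequences come from RefSeq TAIR10.1, which matched 23500 of 23790 identifiers (98.8%).

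Counts were analysed with edgeR 4.0.16 in R 4.3.3: filterByExpr (minimum count 10, minimum total 15; 18344 genes kept), TMM scaling and 1 mean for each of the 6 groups over all 18 libraries (12 degrees of freedom left; coefficient of variation 18.2% between samples). Quasi-likelihood F tests were run with Benjamini-Hochberg adjustment over all tested genes, with calls under 0.05. SE is the log2 change divided by the square root of F. Counts were simulated for the 24 h against 0 h comparison over 18344 genes, with 50 genes changed at each size. Of genes changed by 1 and -1 on the log2 scale 78% and 80% were called, and of those changed by 2 or -2 100%. Also called were 4 unchanged genes. The changed genes were drawn above a floor on mean CPM and were far fewer than those called in the data. Recovery of low-count genes was not tested. Replicate libraries differed by more than sampling noise. Alternatives were RLE and library-size scaling, no filter, a minimum count of 50, only the groups compared, DESeq2 1.42.0, a replicate block, and leaving out each library.

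Genes named are NAA50 and, in the NAA50 line, the 10 largest increases and decreases and the 8 largest CPM gains and losses (called, mean log2 CPM of at least 1, no overlap of the 3 and 3 libraries). They include the 4 largest each way in the difference between the lines and in 24 h against 12 h. From 40 gene lists, up to 4 members with the smallest adjusted p were taken wherever members were tested. The list of N-terminal acetyltransferase subunits dropped out, since its symbols did not match their loci in the annotation. The seed and embryo list and the root list had 0 members tested. Other list members were named for their role after their values were seen. The members and lists were chosen with earlier results of these data known. Of 890 list members, 855 matched the table by symbol and locus, and 71 of these were under the filter on low counts.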

Additional observations from a re-analysis of the deposited data

Results flagged for a closer look

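The 24 h change differed between the NAA50 line and the scrambled line, by the test of the difference itself, in 5458 genes. Those named for the size of their change are given here, and the differences of gene list members stand beside their values above. Values below are log2 differences, NAA50 line minus scrambled line, with adjusted p-values from edgeR where the results above give none.

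The difference was -2.12 for NAA50. Positive differences were found for CYS2 (8.70), UMAMIT8 (7.92), PME5 (7.74), TRM13 (7.36), AT2G47010 (7.21, adjusted p = 5.99e-05), AT3G21320 (6.89, adjusted p = 4.29e-05), AT1G47980 (6.80, adjusted p = 4.54e-04), BGLU45 (6.14, adjusted p = 5.44e-04), GAD4 (5.45), COR47 (2.80), ERD10 (2.66) and UBQ11 (0.93, adjusted p = 0.0125). AT1G64405 (4.58) lost its call without library 2 of the scrambled line at 0 h (adjusted p = 0.144). ALDH7B4 (1.48, adjusted p = 0.042) lost its call without library 1 or 2 of the NAA50 line at 0 h or at 24 h, library 3 of the scrambled line at 0 h, or library 1 or 3 of that line at 24 h (adjusted p = 0.0758 to 0.121).

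Negative differences were found for AT4G12500 (-5.60), AT1G13650 (-5.21), AT3G46280 (-5.21), AT4G16563 (-5.12), AT5G02760 (-4.91), FBA5 (-4.16), AT2G34060 (-4.12, adjusted p = 0.00147), CIPK20 (-3.97), AT1G15830 (-3.40, adjusted p = 0.00169), OFP15 (-2.89) and LHB1B1 (-1.86). PRE1 (-2.47, adjusted p = 0.0252) lost its call without any single library of the NAA50 line at 24 h or library 3 of the scrambled line at 24 h (adjusted p = 0.0529 to 0.0748).

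The last pair of these genes was named for the step from 12 to 24 h. AT2G44240 differed by -4.29 (adjusted p = 0.00324), with means of 21.7, 0.793 and 21.4 CPM at 0, 12 and 24 h in the NAA50 line, a trough, and 0.840, 3.84 and 16.9 CPM in the scrambled line, a rise. LUP1, a lupeol synthase of triterpene metabolism, differed by -4.18 (adjusted p = 3.25e-05), with means of 4.69, 1.99 and 0.208 CPM in the NAA50 line and 4.84, 10.4 and 4.02 CPM in the scrambled line at the same times.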

How the results depend on the processing

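Across every alternative run, the counts of genes called between 24 h and 0 h in the NAA50 line, in the scrambled line and in the difference between the lines moved by less than 1.5 times. With 1 library left out, the NAA50 line gave 4485 to 4963 higher and 4131 to 4651 lower calls, the scrambled line 4245 to 5142 and 3912 to 4957, and the difference 2112 to 2841 and 2028 to 2893. The step from 12 to 24 h was less stable, with 1135 to 1729 higher and 976 to 1687 lower calls. No named gene reversed. Of 186 results for named genes, 178 kept their side of the threshold under all alternatives in the NAA50 line and 141 in the difference. Of 507 named or listed genes called in the NAA50 line, 411 stayed called whichever library was left out. Library-size scaling moved the median of all genes to 0.12 in the scrambled line (-0.0028 with TMM) and to -0.15 in the difference (-0.0484 with TMM), so small differences between the lines depend on scaling. The labels give no pairing, and same-numbered libraries at 24 h and 0 h of the NAA50 line had correlations of 0.0477, 0.0443 and 0.0066. A fit with the replicate number as a block called 5058 higher and 4792 lower genes in the NAA50 line, 5074 and 4758 in the scrambled line, 2583 and 2735 in the difference and 1821 and 1653 between 12 and 24 h. Genes near 3 counts at either time have changes whose size rests on few counts. Each group is 3 pools of 4 plants of 1 line, so line and amiRNA cannot be told apart.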

Other observations

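Further genes named for the step from 12 to 24 h had their own courses. KTI1, a trypsin inhibitor, averaged 44.04, 3.86 and 82.7 CPM at 0, 12 and 24 h in the NAA50 line and 3.37, 16.6 and 59.5 CPM in the scrambled line. DOX1, a fatty acid dioxygenase of defence, averaged 19.97, 2.56 and 37.2 CPM in the NAA50 line and 0.810, 4.87 and 3.68 CPM in the scrambled line. Both steps passed in the NAA50 line (4.43 ± 1.31 and 3.86 ± 1.23, adjusted p = 0.0258 and 0.037 by edgeR). KTI1 lost its call without library 1 or 2 at 12 h or library 3 at 24 h (adjusted p = 0.0935, 0.106 and 0.234), and DOX1 without any 1 library at 12 h or library 3 at 24 h (0.0904 to 0.560). AT1G60590 averaged 1.74, 4.08 and 0.413 CPM in the NAA50 line and 4.83, 34.5 and 5.68 CPM in the scrambled line, highest at 12 h in both, and its step was -3.20 ± 0.73 (adjusted p = 0.00613). UGT73C6, a flavonol glucosyltransferase gene that overlaps a gene on the opposite strand over its whole length, averaged 9.06, 4.61 and 0.280 CPM in the NAA50 line and 11.5, 15.04 and 1.70 CPM in the scrambled line. Its step was -3.81 ± 0.61 (adjusted p = 4.76e-04).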
